A study of Danio rerio with 20 samples.

Results

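The genes described here encode the digestive enzymes of the exocrine pancreas and were followed in whole zebrafish embryos at 72 h post-fertilization (hpf). The set was defined by name and holds 10 genes: prss1, prss59.1, prss59.2, ctrb1, cpa4, cpa5, ela2, ela2l, ela3l and cel.2. Of these, 8 could be measured among the 9368 genes of the expression table. The row listed as try was read as prss1 because RefSeq (assembly GRCz12tu) gives try as a synonym of that gene, and the other 7 carried their own names. The elastase-like gene ela3l and the bile salt-activated lipase gene cel.2 were not analysed here. Levels are given as reads per 1000000 reads on genes (CPM). Testing required a mean above the minimum level stated in the methods of the study, which 6933 genes and 7 of the 10 members reached. The trypsin-like gene prss59.1 averaged 2.18 CPM, did not reach it and is given by its reads only.

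Wild-type AB strain embryos were kept in embryo water alone (control) or exposed to HFPO-DA (GenX) at 0.5, 1, 2 or 10 mg/L, a replacement for long-chain perfluoroalkyl acids, in solutions neutralized to the pH of embryo water. Exposure ran from the sphere stage to 72 hpf, the protruding-mouth stage, and each RNA sample was a pool of 8 to 10 whole embryos. Of 20 pools, 4 per group and lettered a to d, 19 were analysed: the authors had removed 1 control pool as an outlier, so control pools a, b and c stand against 4 pools at each of 4 exposures. No label ties pools to separate clutches, so that p-values measure the spread between pools only. Sequencing was shallow and from the 3′ end, with between 104350 and 581494 reads on genes per pool.

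In teleosts, as in mammals, acinar cells of the exocrine pancreas make digestive enzymes, most of them as inactive precursors, and release them into the gut. Trypsins cut proteins after basic residues and activate the other precursors. Chymotrypsins and elastases cut inside proteins after other residues, carboxypeptidases trim the free end, and carboxyl ester lipase digests lipid esters. In zebrafish these genes switch on in the acinar cells before the larva begins to feed. Several members lie beside a close relative in the genome (RefSeq GRCz12tu), which matters for counting: prss59.1 beside prss59.2 on chromosome 16, ela2l beside ela2 on chromosome 8, cpa5 beside cpa1 on chromosome 25, and ctrb1, there named ctrb.1, beside ctrb.2 on chromosome 7. Reads that fit several genes can be dropped or assigned to one of them, so the split within these pairs is uncertain.

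The enzyme genes were detected in every pool, at low depth. Together the 8 members took 634 reads over the 19 pools, or 0.0122% of all reads on genes. A gene of the table had a median of 74 reads over all pools, and 3 members exceeded it: prss1 with 246 reads, prss59.2 with 144 and ctrb1 with 77. cpa5 had 72 reads, ela2l 30, ela2 28, cpa4 24 and prss59.1 13. These totals are not corrected for length or paralog sharing and do not rank the enzymes by abundance. Reads of ptf1a, a transcription factor of acinar cells, were few as well in these whole embryos, with 14 in all pools.

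The summed level of the 8 members differed widely between pools of the same group. In the controls it was 245 CPM in pool a (97 reads), 47.4 CPM in pool b (13 reads) and 119 CPM in pool c (41 reads), a 5.17-fold range among untreated embryos. The 95% Wilson intervals of control pools a (201 to 299 CPM) and b (27.7 to 81.1 CPM) did not overlap, so the distance between them was larger than counting error, the only error these intervals cover.

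At 0.5 mg/L the summed level was 202, 153, 255 and 51.9 CPM in pools a to d. At 1 mg/L it was 50.9, 121, 145 and 60.2 CPM. The pools at 2 mg/L had 121, 171, 131 and 57.0 CPM. All of these lay within the range of the control pools except pool c at 0.5 mg/L, which was above it. At 10 mg/L both the highest and the lowest pool of the series were found, with 74.7, 285, 145 and 19.2 CPM. The value of 19.2 CPM rested on 2 reads, under the 3 reads taken here as the floor for a pool. Of all 16 exposed pools, 13 fell within the control range, 2 above it and 1 below it.

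**Figure D1:**
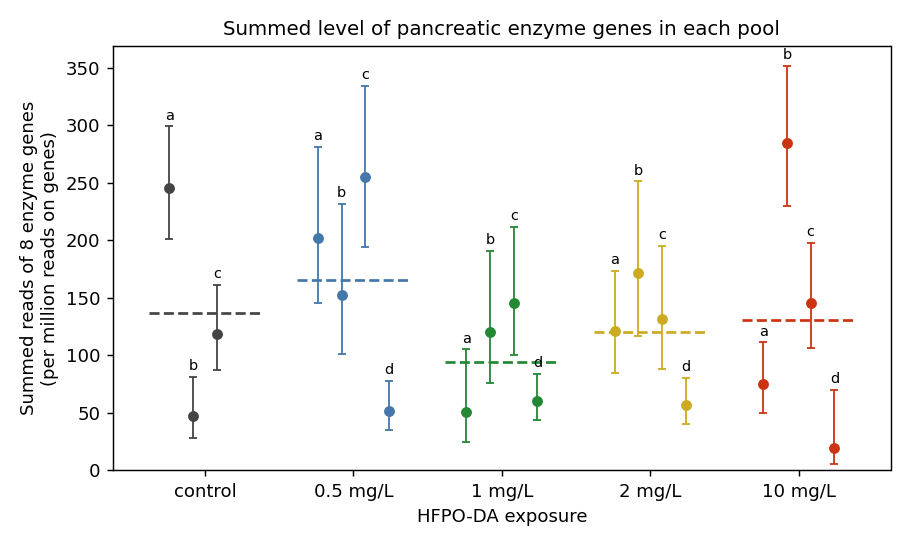
Summed level of the 8 measured enzyme genes in each pool, in CPM, by HFPO-DA exposure. Points are pools with their letter, vertical bars are 95% Wilson intervals for counting error, and dashed lines are group means. The 3 control pools span 47.4 to 245 CPM, and 13 of 16 exposed pools fall inside that span.

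By group, the sum of the deposited normalized values was 38.3 ± 28.0 in the controls (SD, n = 3). With rising concentration the 4 exposures had 46.8 ± 24.2, 26.6 ± 12.1, 34.6 ± 13.7 and 39.8 ± 30.2 (SD, n = 4 each). Relative to control these sums were 1.22, 0.694, 0.905 and 1.04, and each difference was smaller than the SD of the control pools. The ratios did not follow the concentration in order. These sums count each replaced zero as 0.5 reads. Pool d at 10 mg/L, with 2 reads, thus had a sum of 12.1, beside 13.8 in control pool b with 13 reads. On CPM, without replaced zeros, the ratio at 10 mg/L was 0.955. In pools of whole embryos, fewer acinar cells and less enzyme RNA per acinar cell cannot be told apart.

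Among exposed pools, low sums mostly went with letter d, a split made after seeing the data. The share of all genes that split by letter was not worked out. Pool d had the lowest sum of its group at 0.5, 2 and 10 mg/L and the second lowest at 1 mg/L. The 4 exposed pools of letter d had 19.2 to 60.2 CPM (median 54.4), against 50.9 to 285 CPM (median 145) in the 12 exposed pools of letters a to c, of which 1 was below the highest d pool. Pool d was also the deepest library at 0.5, 1 and 2 mg/L and the shallowest at 10 mg/L. The sum of the hatching gland genes he1a and he1b, which encode the proteases that dissolve the egg envelope, ran the other way. It was 13.5 to 29.4 CPM in the d pools and 0 to 13.4 CPM in the a to c pools of the exposures. Of these, 19.2 CPM in pool d at 10 mg/L and the 13.4 CPM in pool b at 1 mg/L were 2 reads each, under the floor of 3 reads, while the d pools at the lower 3 exposures had 6, 16 and 17 reads. he1b alone had 2, 4, 2 and 0 reads in the d pools with rising concentration, and 0 or 1 in the other exposed pools. It did not separate by letter on its own. The labels do not say what a letter stands for, and no control pool of letter d was analysed, so that letter is represented among exposed pools only. The part of the letter in the results was not tested beyond the values without these pools. Without them the CPM sums relative to control were 1.48, 0.771, 1.03 and 1.23 with rising concentration, in place of 1.21, 0.688, 0.878 and 0.955 with them.

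Among the trypsins, prss1, a digestive trypsin, carried the most reads of any member. Its level was 80.9, 32.8 and 37.6 CPM in control pools a to c. With rising concentration the exposures averaged 73.9 ± 42.6, 27.2 ± 22.4, 47.8 ± 27.7 and 53.8 ± 50.4 CPM (SD, n = 4 each), and single exposed pools ranged from 0 to 127 CPM. Every exposure overlapped the controls, and the only pool without a read was pool d at 10 mg/L. At 1 mg/L, where pool a had 1 read, pool b 3, pool c 11 and pool d 13, the log2 fold change against control was -1.06 ± 0.50 (SE). That difference had an unadjusted p of 0.0398 (limma) and an adjusted p of 0.998 (limma, Benjamini-Hochberg over 6933 genes), so it did not pass. Of all genes tested at 1 mg/L, 3.97% had an unadjusted p under 0.05.

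prss59.2, a further trypsin-family protease, was the only member with reads in all 19 pools. The controls had 50.6, 7.29 and 26.0 CPM, and the means of the exposures, from the lowest concentration to the highest, were 28.1 ± 18.2, 27.1 ± 6.78, 26.5 ± 6.61 and 31.6 ± 26.6 CPM (SD, n = 4 each), against 28.0 ± 21.7 CPM in the controls (SD, n = 3). The 5 group means were thus close to each other beside an SD of 6.61 CPM or more. Its neighbour prss59.1 had 13 reads, 5 of them in the controls and 8 in the exposed pools, and 11 pools had none.

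ctrb1, a chymotrypsinogen B, was at 25.3, 3.65 and 17.3 CPM in the control pools. In the same order of exposures the means were 26.7 ± 19.8, 10.5 ± 12.5, 17.3 ± 12.1 and 14.6 ± 13.5 CPM (SD, n = 4 each). The highest pool was pool a at 0.5 mg/L with 51.9 CPM (9 reads). Pool a at 1 mg/L and pool d at 10 mg/L had 0 reads, and every exposure overlapped the controls.

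Of the carboxypeptidases, cpa5 had the same reads as ctrb1 in each control pool, 10, 1 and 6. Its exposed means were 18.4 ± 15.8, 13.2 ± 18.3, 14.4 ± 8.12 and 12.3 ± 15.9 CPM (SD, n = 4 each). At 1 and 10 mg/L the SD was above the mean. cpa4 had at most 2 reads in a control pool, which is at the floor, so no fold against control is given. It had 3 reads in the controls together and 4, 5, 9 and 3 reads in the exposures with rising concentration.

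The elastase genes were unevenly spread even among untreated embryos. ela2 had 9, 0 and 3 reads in control pools a to c, and ela2l had 11, 0 and 1. Over the 4 pools of each exposure, ela2 had 2, 1, 4 and 9 reads with rising concentration. ela2l had 5, 5, 1 and 7 reads. Control pool a thus held most of the control reads of both genes, while no exposed pool except b and c at 10 mg/L exceeded 3 reads of either. For ela2 at 0.5, 1 and 2 mg/L, and for ela2l at those exposures, every exposed pool was at the floor, and the fitted folds depend on the value put in place of a zero.

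**Figure D2:**
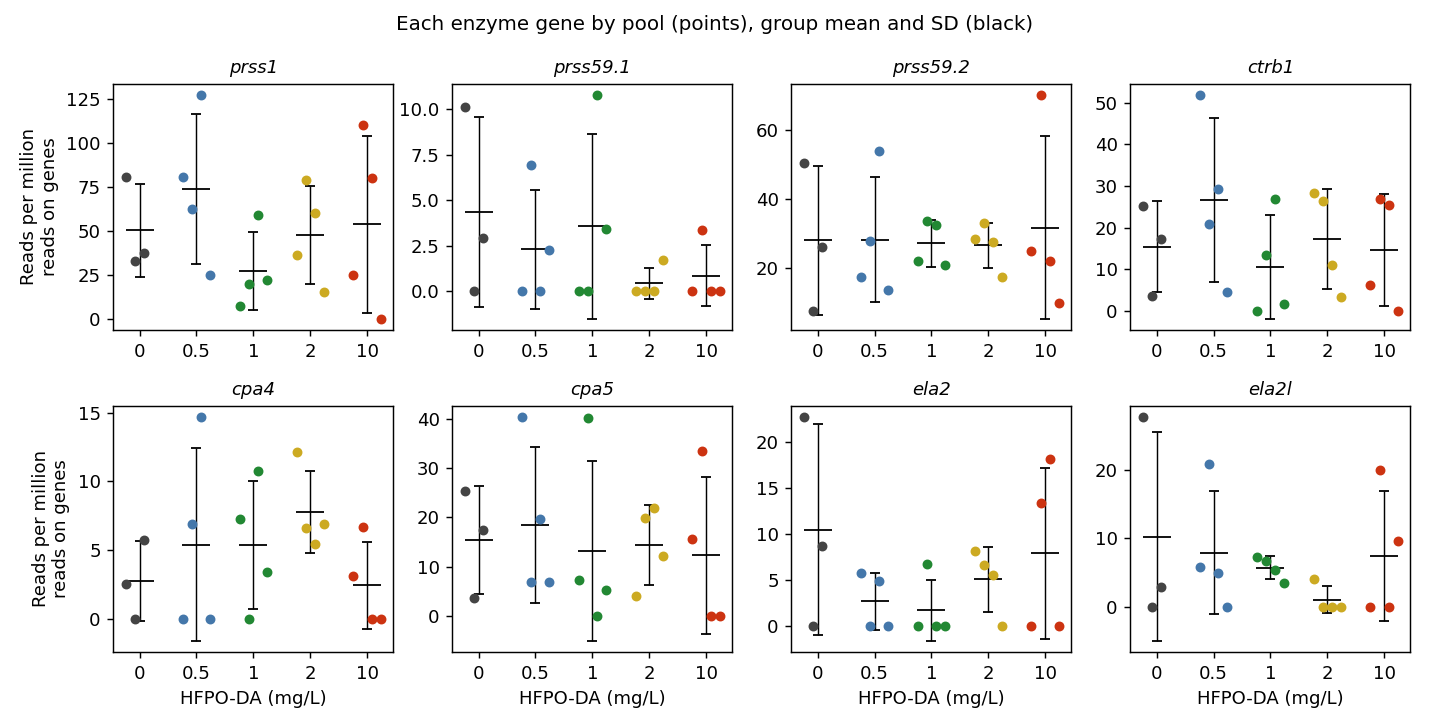
Level of each of the 8 measured enzyme genes in every pool, in CPM, against HFPO-DA concentration (0 is control). Points are pools, and black marks are the group mean and SD (n = 3 for control, n = 4 for each exposure). Exposed and control pools overlap for every tested gene at every exposure, and each panel has its own vertical scale.

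No enzyme gene passed the test at any exposure. At 0.5 and 1 mg/L, 0 of 7 members were called at an adjusted p under 0.1 (limma), where 0% of all 6933 genes were called. The same count of 0 of 7 was found at 2 and 10 mg/L, where 0.0144% of all genes, 1 gene each, were called. Neither the mean of the 4 exposures against control nor the differences among the 4 exposures gave a called member, with 0% of all genes called in both. At an unadjusted p under 0.05, 1 of 42 tests of members passed (limma), the one of prss1 at 1 mg/L given above. The background shares at that level were 6.2%, 4.85% and 4.21% at the other exposures with rising concentration, 4.76% for the mean of exposures and 4.47% among exposures. edgeR and DESeq2 on whole reads called 0 members as well. At an unadjusted p under 0.05 edgeR passed 7 of 42 tests of members and DESeq2 0. In edgeR these were prss1 at 1 mg/L and among exposures, ela2 at both lower exposures and over the mean, and ela2l at 2 mg/L and over the mean. The 6 with a direction were all lower in exposed pools. The background shares in edgeR were 5.15%, 3.97%, 4.75% and 4.44% with rising concentration, 5.6% for the mean and 3.29% among exposures. DESeq2 passed few genes of any kind at that level: 128, 61, 101 and 65 of 6933 in the same order. It passed 174 for the mean and 73 among exposures. Without control pool a edgeR passed 4 of 42, of which 0 were lower and 3 higher (prss1 at 0.5 and 10 mg/L and prss59.2 at 10 mg/L), with prss1 among exposures as the other. In that fit, 643, 413, 640 and 574 of all 6933 genes had an unadjusted p under 0.05 with rising concentration. The counts were 665 for the mean and 266 among exposures, so more genes passed in general than with that pool.

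No member separated exposed from control pools either. Of the 7 tested members, 0 had ranges that did not overlap the controls at 0.5 mg/L, where 6.51% of all genes did. The count was also 0 at 1, 2 and 10 mg/L, against 4.38%, 5.71% and 6.38% of all genes, and 0 for all exposed pools together, against 0.144%. Control pool b had 0 reads of cpa4, ela2 and ela2l, so exposed pools could not lie below the controls for these genes. It had 1 read each of ctrb1 and cpa5. The shares of all genes come from better-read genes: tested genes had a median of 138 reads, which only prss1 and prss59.2 exceeded.

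Fold changes could be given for 6 members, on the scale of log2 (normalized value + 0.5), which can understate changes of low genes. A replaced zero also had a value that varied with depth, from 0.35 to 0.46 in the control pools and from 0.23 to 1.21 in the exposed pools. Some directions reversed with replaced zeros set to 0, as for ctrb1 at 10 mg/L, given further below. Over the mean of the 4 exposures, the log2 fold change was -0.27 ± 0.49 for prss1, 0.23 ± 0.44 for prss59.2, 0.08 ± 0.58 for ctrb1 and -0.13 ± 0.58 for cpa5 (SE). It was -0.64 ± 0.47 for ela2 and -0.28 ± 0.50 for ela2l (SE). The prss1, prss59.2, ctrb1 and cpa5 estimates therefore lay on both sides of 0, each by less than its SE. Both elastase genes were estimated lower and depended most on the tool. Over the mean of exposures edgeR on whole reads gave -1.76 for ela2 (unadjusted p = 0.0139, adjusted p = 0.717) and -1.48 for ela2l (unadjusted p = 0.0361, adjusted p = 0.853), and DESeq2 gave -1.63 and -1.29. At single exposures edgeR gave -2.18 and -3.13 for ela2 in the groups at 0.5 and 1 mg/L, and -3.18 for ela2l in the 2 mg/L group, where the exposed pools were at the floor. Control pool a held 9 of the 12 control reads of ela2 and 11 of the 12 of ela2l. Without it, edgeR gave -0.53 for ela2 and 1.09 for ela2l over the mean (adjusted p = 0.935 and 0.895), and limma gave 0.043 and 0.69.

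Of 30 fold changes against control, 29 had a 95% interval that included 0, and the limits lay 0.77 to 1.39 above and below the estimate on the log2 scale. The interval was not centred on 0 for every gene, and that of ela2 at 1 mg/L ran from -2.14 to 0.09. prss1 at 1 mg/L was the exception, with an interval from -2.08 to -0.05 before any adjustment.

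The 7 tested members had a median log2 fold change of 0.23, -0.45, 0.06 and -0.09 with rising concentration. The medians of all genes were -0.06, -0.04, -0.04 and -0.04. All 4 comparisons share the 3 control pools. In the test among the 4 exposures, which does not use the controls' level, prss1 had an unadjusted p of 0.0508 and an adjusted p of 0.964 (limma). Without the exposed pools of letter d, which was tried after seeing the data, the same test of prss1 had an unadjusted p of 0.00055 and an adjusted p of 0.352 (limma), which did not pass either, where 7.21% of all genes had an unadjusted p under 0.05.

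**Figure D3:**
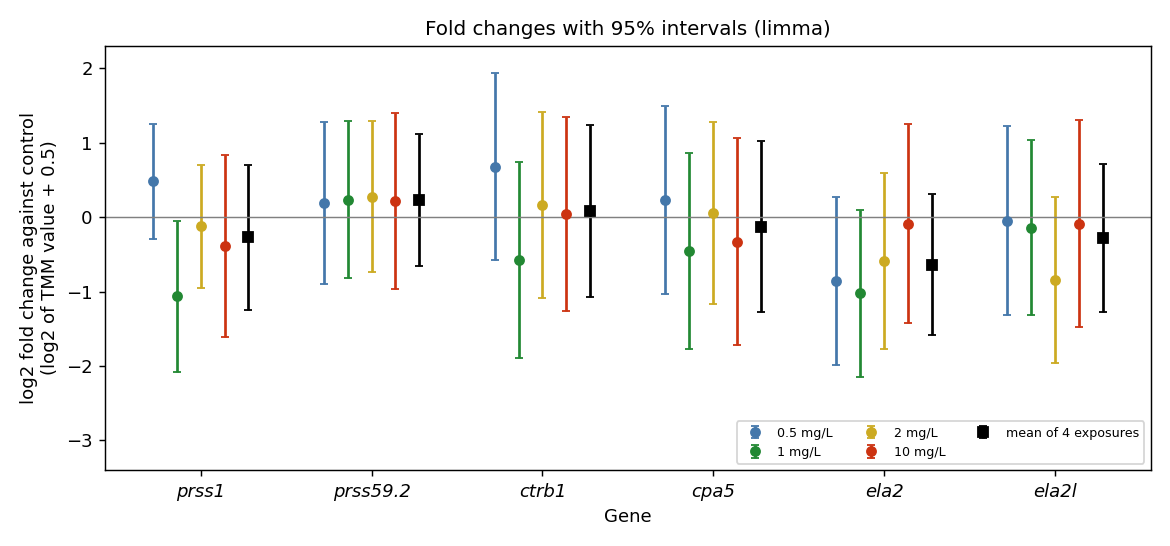
log2 fold change against control of the 6 enzyme genes with control reads above the floor, at each HFPO-DA exposure and for the mean of the 4 exposures. Points are limma estimates on log2 (normalized value + 0.5) and bars are 95% intervals without adjustment. All intervals but that of prss1 at 1 mg/L include 0.

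The enzyme genes varied together from pool to pool. Over the 19 pools, the Pearson correlation of log2 values was above 0 in all 21 pairs of the 7 members, from 0.03 to 0.79 with a median of 0.40, and 9 pairs exceeded 0.5. prss1 and ctrb1 had the highest value, 0.79 (Spearman 0.82). The lowest was that of cpa4 with ela2, 0.03 (Spearman 0.004), and cpa4 also had 0.04 with cpa5 (Spearman -0.05). After subtracting group means the 21 values ran from 0.03 to 0.82 with a median of 0.46, so the shared variation was present within groups. Both genes of a pair are read from the same library, the same embryos and the same depth. A replaced zero also takes the same value for all genes of a pool, and cpa4, ela2 and ela2l had 6, 9 and 7 pools without reads. How far this raised the correlations was not tested.

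Further pancreatic genes followed the same pools. Of a list of 37 names of other enzymes and acinar secretory genes, 11 further genes were measured, 5 of them through RefSeq synonyms, and 3 passed the filter: ctrb.3 and ctrl, which encode chymotrypsin-family proteases, and cel.1, a carboxyl ester lipase. Over the mean of exposures their log2 fold changes were 0.34 ± 0.55, 0.15 ± 0.49 and -0.07 ± 0.42 (SE), and 0 of 3 passed the test at any exposure. In control pools a to c, ctrb.3 had 9, 0 and 0 reads. cel.1 had 2, 2 and 0, so its controls were at the floor. The summed CPM of the 11 genes had a Pearson correlation of 0.91 (Spearman 0.88) with that of the 8 members over 19 pools, on log2 (CPM + 1). It was 0.88 without the pools farthest from the median, d at 10 mg/L and b of the control, and 0.93 after subtracting group means. The 4 exposed pools of letter d had 0 to 6.91 CPM of these genes and the 12 of letters a to c 7.27 to 53.6 CPM. The ranges did not overlap, but they met at few reads: 7.27 CPM was 1 read in pool a at 1 mg/L, and 6.91 CPM was 4 reads in the deeper pool d at 2 mg/L. The split by letter was made after seeing the data, and the share of all genes that separate by letter was not worked out.

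**Figure D4:**
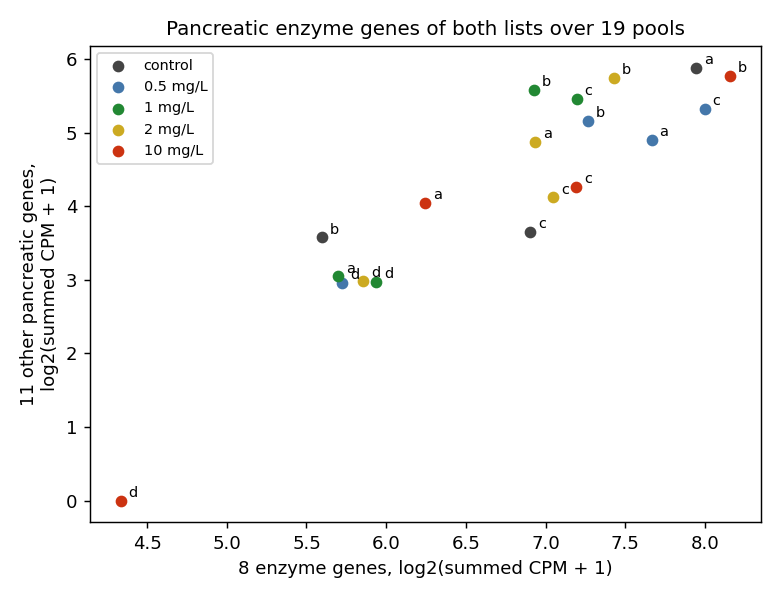
Summed level of the 8 measured enzyme genes (horizontal) against that of 11 other pancreatic enzyme genes (vertical), both as log2 (CPM + 1), in 19 pools coloured by exposure and marked by letter. The Pearson correlation is 0.91. The pools at 10 mg/L hold the lowest point on both axes and the highest on the horizontal axis, and control pool a is the highest on the vertical axis.

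Lists for neighbouring organs were read beside the enzymes. All levels are of whole embryos, so reads of a listed gene can come from other tissues as well. A few genes carry much of each sum. In the liver list rbp4 averaged 859 of 2060 CPM. In the intestinal list rbp2a and apoa4b.1 averaged 177 and 167 of 407 CPM, and among the transcription factors mnx1 averaged 8.68 of 24.3 CPM. The summed level of the members had a correlation of 0.61 with 10 liver genes such as rbp4, tfa and apoa2, which encode plasma carrier proteins, and of 0.59 with 11 intestinal genes such as rbp2a, apoa4b.1 and cdh17. With 20 genes of protein secretion in the endoplasmic reticulum, such as calr3a, pdia3 and xbp1, it was 0.00, and with 7 pancreatic transcription factors, led by mnx1, nr5a2 and sox9b, it was -0.27, but 0.047 without those farthest pools. Without them it was 0.48 for the liver, 0.45 for the intestine and 0.12 for the secretion genes. The 8 endocrine pancreas genes gave -0.67, but -0.05 without neurod1 and scg3, which neurons also express and which held most of its reads. The next gene of that list by level was arxa. The hatching gland genes gave -0.48. Without the farthest pools the endocrine and hatching gland values were -0.63 and -0.37. The number of reads on genes had a correlation of -0.02 with the enzyme sum, and the number of embryos in the pool one of 0.17. Without the same pools as above, d at 10 mg/L and b of the control, these were -0.36 and -0.10. None of the genes in these lists was called in any comparison (limma). Over the mean of exposures the median log2 fold change was 0.41 for liver, -0.14 for endocrine pancreas, -0.22 for intestine, -0.42 for the transcription factors, -0.04 for secretion genes and 0.90 for he1a, beside -0.05 for all genes. Of 7 endocrine genes tested, 3 were above 0: the hormone genes ins (0.93), sst2 (0.88) and gcgb (0.72). neurod1, scg3, arxa and pcsk2 were below 0. Of 4 transcription factors tested, ptf1a alone was above 0, with 0.18. For ins, sst2, gcgb, ptf1a and he1a no control pool exceeded the floor of 3 reads. he1a had 0, 1 and 0 reads in control pools a to c. It had 4, 12, 15 and 2 reads in the d pools with rising concentration and at most 2 in any other exposed pool. Its value thus rests on a letter without an analysed control pool.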

How the data were processed

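Whole-embryo 3′ RNA-Seq libraries of 19 pools were analysed. The authors extracted molecular identifiers with UMI-tools 1.1.2, trimmed reads with Trimmomatic 0.40, removed rRNA reads, aligned with STAR, counted genes with HTSeq 0.13.5 and deposited a normalized signal (TMM) per gene. The study states GRCz10 as the assembly for the STAR alignment. The labels name both GRCz10 and GRCz11 without saying at which step each was used. In the deposited values 100% of entries other than replaced zeros were whole multiples of 1 read (tolerance 0.0001), each zero having been replaced by 0.5 reads. Reads and CPM are from these recovered reads. The study's pairwise test (NOISeq) was not run. limma 3.58.1 in R 4.3.3 was used instead, with trend, two-sided, on log2 (value + 0.5). It covered 6933 genes above the minimum CPM of the study, Benjamini-Hochberg adjusted and called under 0.1. That minimum was applied to CPM of the recovered reads, and the study reports more genes as analysed, so the tested sets differ. The script was tested on simulated data with changes placed only in genes with more reads than any member. Recovery of changes at the level of the members was therefore not tested. Alternatives were other pseudocounts and filters, replaced zeros set to 0, rescaling, no trend, edgeR 4.0.16, DESeq2 1.42.0, a replicate block, 1 fit over 5 groups and leaving out pools. Values without pools of letter d, edgeR without control pool a, and summed CPM were added after seeing the data. Fold changes are given for members that passed the filter and had more than 3 reads in a control pool. Named were all members, other pancreatic genes passing the filter, up to 3 genes of highest mean per marker list and the 5 genes most like the members. Members and lists were chosen with earlier results of these data known.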

Additional observations from a re-analysis of the deposited data

Results flagged for a closer look

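In 4 of 36 sets of pools (a gene or the sum in an exposure of 4 pools), 1 pool stood far from the rest by Dixon's criterion (0.829 for 4 pools), which chance flags in about 1 of 20 sets. Each rested on 1 read against 0 in the other pools, a pattern that always meets the criterion. The rate of 1 in 20 is for continuous values and does not apply to such sets. They were ela2 at 1 mg/L, with 6.70 CPM in pool b, and ela2l at 2 mg/L, with 4.04 CPM in pool a. prss59.1 had 1.73 CPM in pool d at 2 mg/L and 3.35 CPM in pool b at 10 mg/L.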

How the results depend on the processing

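No member was called under any alternative, and the lowest adjusted p of a member was 0.276, in edgeR without control pool a. Of 656 alternative fold changes of members, 565 kept their direction and 91 reversed, none of them called. With replaced zeros set to 0, the log2 fold change of ela2l was 0.088 and 0.17 at the lower pair of exposures, and that of ctrb1 -0.40 at 10 mg/L and -0.13 over the mean of exposures. In edgeR, prss59.2 had -0.15, -0.26 and -0.25 at 0.5, 1 and 2 mg/L and -0.092 over the mean, ctrb1 -0.20 at 2 mg/L and -0.17 over the mean, cpa5 -0.26 at 2 mg/L and prss1 0.31 at 10 mg/L. In DESeq2, prss59.2 had -0.14 at 1 mg/L and -0.12 at 2 mg/L, cpa5 -0.16 at 2 mg/L and prss1 0.22 at 10 mg/L. Without the pools of letter d, and with a replicate block, which gave the same values because no control carries that letter, ela2l had 0.41 at 0.5 mg/L and 0.014 at 1 mg/L, prss1 0.31 at 2 mg/L, 0.46 at 10 mg/L and 0.15 over the mean, ela2 0.10 at 10 mg/L and cpa5 0.068 over the mean. In edgeR without control pool a, added after seeing the data, ela2l had 1.57, 1.38 and 1.94 at all but 2 mg/L and 1.09 over the mean, prss1 0.21 at 2 mg/L, 0.91 at 10 mg/L and 0.44 over the mean, cpa5 0.49 at 10 mg/L and 0.31 over the mean, and ela2 0.94 at 10 mg/L. The cause was not tested.

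Same-letter pairs of pools had correlations of deviations from -0.06 to 0.18 (median 0.008), with 3 of 36 above 0.1. Pairs of different letters had -0.09 to 0.12 (median -0.001), with 1 of 108 above 0.1. Of 19 pools, 9 matched their own letter best, and the number that chance gives was not worked out. The 3 same-letter pairs above 0.1 were of the d pools at 0.5, 1 and 2 mg/L, with 0.18, 0.16 and 0.13. These pools thus deviated together, pool d at 10 mg/L did not join them, and letters a to c had 0 such pairs. The same 3 pools were the deepest libraries of their groups, and pool d at 10 mg/L was the shallowest of its group. A replaced zero had a value of 0.32, 0.23 and 0.24 in these 3 pools and 1.21 in pool d at 10 mg/L. Letter and depth thus go together here, and the part of depth in these correlations was not tested. The replicate block moved the count of genes called to 29, 2 and 3 at the lower 3 exposures and left it at 1 at 10 mg/L.

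The count of genes called was 0, 0, 1 and 1 with rising concentration. At 2 mg/L it became 0 with a pseudocount of 0.1 and in DESeq2, and 2 in edgeR. At both 2 and 10 mg/L it became 0 with a filter of 10 CPM, with replaced zeros set to 0, without trend, with 1 fit over 5 groups, without the pools of letter d and at an adjusted p under 0.05. With no filter it was 1, 2 and 2 at 1, 2 and 10 mg/L, and without the pools of letter d it was 1 at 0.5 mg/L. edgeR called 5 genes in the mean of exposures and 3 among exposures. Without control pool a it called 95, 26, 77 and 47 genes with rising concentration, 71 in the mean and 3 among exposures.

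Leaving out 1 pool at a time gave 0 to 46, 0 to 1, 0 to 8 and 0 to 3 genes called, in the same order, and 0 to 31 in the mean. The summed level relative to control ran from 0.927 to 2.03, 0.526 to 1.15, 0.686 to 1.51 and 0.686 to 1.73. The high extremes of the summed level came without control pool a, and the low ones without control pool b, or without pool b at 10 mg/L for that exposure. Most extremes of the fold changes of members came without the same control pools. The exceptions were both extremes of prss1 at each single exposure and the high ones of ctrb1 at 0.5 and 2 mg/L and of cpa5 at 10 mg/L. Those came on leaving out an exposed pool. Log2 fold changes that reversed had these ranges. At 0.5 mg/L they were -0.53 to 0.79 for prss59.2, -0.039 to 1.27 for ctrb1, -0.49 to 0.72 for cpa5 and -0.64 to 0.92 for ela2l. At 1 mg/L they were -0.49 to 0.84 for prss59.2, -1.17 to 0.039 for cpa5 and -0.73 to 0.83 for ela2l. At 2 mg/L they were -0.43 to 0.31 for prss1, -0.45 to 0.87 for prss59.2, -0.55 to 0.69 for ctrb1, -0.66 to 0.55 for cpa5, -1.33 to 0.091 for ela2 and -1.43 to 0.13 for ela2l. At 10 mg/L they were -0.94 to 0.46 for prss1, -0.50 to 0.82 for prss59.2, -0.67 to 0.54 for ctrb1, -1.05 to 0.19 for cpa5, -0.82 to 0.60 for ela2 and -0.68 to 0.88 for ela2l. Over the mean they were -0.55 to 0.15 for prss1, -0.49 to 0.83 for prss59.2, -0.64 to 0.57 for ctrb1, -0.84 to 0.37 for cpa5, -1.38 to 0.043 for ela2 and -0.87 to 0.69 for ela2l. prss1 at 1 mg/L stayed below 0 in all of these, from -1.53 to -0.61.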

Other observations

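Among 3978 genes outside all lists with a mean above 20 CPM, the 5 whose log2 values were most like the mean of the members over 19 pools were zgc:158846 (Pearson 0.81), ndufb9 (0.79), mrps17 (0.77), rltgr (0.74) and rhbg (0.73). ndufb9 encodes a subunit of respiratory complex I, mrps17 a mitochondrial ribosomal protein and rhbg an ammonia transporter. With group means subtracted the values were 0.89, 0.80, 0.81, 0.75 and 0.74. These are the highest of many correlations and describe these pools only.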
